A study of Mus musculus with 12 samples.

Results

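The MHC class II antigen presentation genes are a set of 9 named genes, namely Ciita, H2-Aa, H2-Ab1, H2-Eb1, Cd74, H2-DMa, H2-DMb1, H2-Oa and H2-Ob. They were looked up by symbol among array features that carry a single gene symbol, and 8 of the 9 had such a feature, of 19938 genes tested in all. H2-DMb1 lies on a feature that is shared with another symbol, so it is not analysed here. Each of the 8 genes had 1 feature. Their values were read in duodenal segments of strain 129 mice in 4 groups of 3 arrays: Onecut2 knockout at postnatal day 30, wild type at day 30, Onecut2 knockout at day 15 and wild type at day 15. Day 15 lies before weaning and day 30 after it. Every array held total RNA of 5 to 8 mice pooled without separation of the sexes, and no group was treated. How Onecut2 was ablated is not described in the labels. The replicates are separate pools, so the spread between arrays is that between pools, not between single mice.

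MHC class II molecules are heterodimers of an alpha and a beta chain that carry peptides from the endosomal route to the cell surface, where CD4+ T cells read them. Dendritic cells, macrophages and B cells carry them at all times, and enterocytes of the small intestine also make them, under the influence of interferon gamma. New heterodimers bind the invariant chain, proteases of the endosome cut it down to a short peptide, the DM heterodimer exchanges that peptide for others, and the DO heterodimer restrains DM. Ciita encodes the coactivator on which transcription of these genes depends. It does not bind DNA itself but joins factors that sit on a conserved pair of promoter elements, the X box and the Y box.

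That pair of elements is shown for 4 of the genes because their promoter sequence and their values can be set side by side. The promoters are those of RefSeq on build GRCm38.p6, which held 6 of the 9 members, and the 250 bases before each start site were searched on both strands. The capitals mark an X box core spelled CNNGNAAC and the Y box core ATTGG, in the direction of transcription.
H2-Aa (chr17:34287857-34287917, minus strand): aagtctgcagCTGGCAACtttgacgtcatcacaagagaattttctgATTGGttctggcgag
H2-Eb1 (chr17:34305763-34305822, plus strand): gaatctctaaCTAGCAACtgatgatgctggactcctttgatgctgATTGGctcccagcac
H2-Oa (chr17:34092290-34092350, plus strand): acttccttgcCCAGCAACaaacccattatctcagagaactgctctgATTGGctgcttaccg
H2-Ob (chr17:34238805-34238862, plus strand): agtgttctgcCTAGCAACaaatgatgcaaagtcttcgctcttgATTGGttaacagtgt

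The X box core began 84 bases before the start site in H2-Aa, 94 in H2-Eb1, 79 in H2-Oa and 90 in H2-Ob, and the Y box core followed after 36, 35, 36 and 33 bases, counted from the start of one to the start of the other. H2-DMb1 held the same arrangement, and neither of the start sites listed for H2-DMa did. So 5 of 6 members had this X box core 30 to 44 bases before ATTGG, against 0.577% of 27025 genes with a promoter. A gene was counted here and below if any of its promoters held the letters. These letters were chosen after the sequences had been seen. With the X box spelled CCNNGNNAC, as first written down, 3 of 6 members held the pair, namely H2-DMb1, H2-Oa and H2-Ob, against 0.766% of genes. Alone, ATTGG was present in 6 of 6 members and in 37.5% of genes and CCNNGNNAC in 5 of 6 and in 44.4%. H2-DMa held these letters at different start sites. A match of letters is a description of the sequence, not evidence of a bound factor.

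Onecut2, the ablated gene, was lower in every knockout pool than in every wild type pool. It lay between 8.18 and 8.25 in knockout pools at day 30, against 9.50 to 9.63 in wild type pools. At day 15 it lay between 8.09 and 8.20 in knockout pools, against 9.55 to 9.69 in wild type pools. All levels are log2 values, as deposited, and a difference of 1 is a doubling. The array medians ran from 7.20 to 7.25. The epithelial gene Epcam lay between 12.10 and 12.26 on every array, and the small intestinal fatty acid binding gene Fabp2 between 11.78 and 13.36. In such bulk RNA, fewer cells of a type and less RNA per cell cannot be told apart.

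Class II genes were higher at day 30 than at day 15 in the knockout duodenum. Of the 8 genes, 6 passed the test there (Cd74, H2-Ab1, H2-DMa, H2-Aa, H2-Eb1 and Ciita), with folds of 1.14 to 1.49, while the DO genes H2-Oa and H2-Ob did not. In the wild type duodenum 7 of 8 log2 differences were also positive, and 0 of 8 genes passed. The wild type estimate was smaller than the knockout one for each of the 6 genes called in knockout and larger for H2-Oa. The difference between the genotypes in this age change was itself tested and was not called for any of the 8. Knockout and wild type were not called different at either age.

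The background of those counts is broad. In the knockout, 13.8% of all genes were called higher at day 30 and 17.2% lower, against 6 and 0 of the 8 class II genes. In wild type, 12.3% were called higher and 17% lower, against 0 and 0 of the 8. The test was limma across all genes with Benjamini-Hochberg adjustment, and a gene was called at an adjusted p under 0.05. All 3 knockout pools of day 30 lay above all 3 of day 15 for 6 of 8 class II genes and for 20.9% of all genes, and the same held in wild type for 3 of 8 (Cd74, Ciita and H2-Eb1) and for 20.7%. At an unadjusted p under 0.05, 3 of 8 class II genes passed in wild type, where 39.1% of all genes did. The median log2 difference of the 8 genes was 0.35 in knockout and 0.19 in wild type, beside medians over all genes of 0.03 and 0.02.

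**Figure D1:**
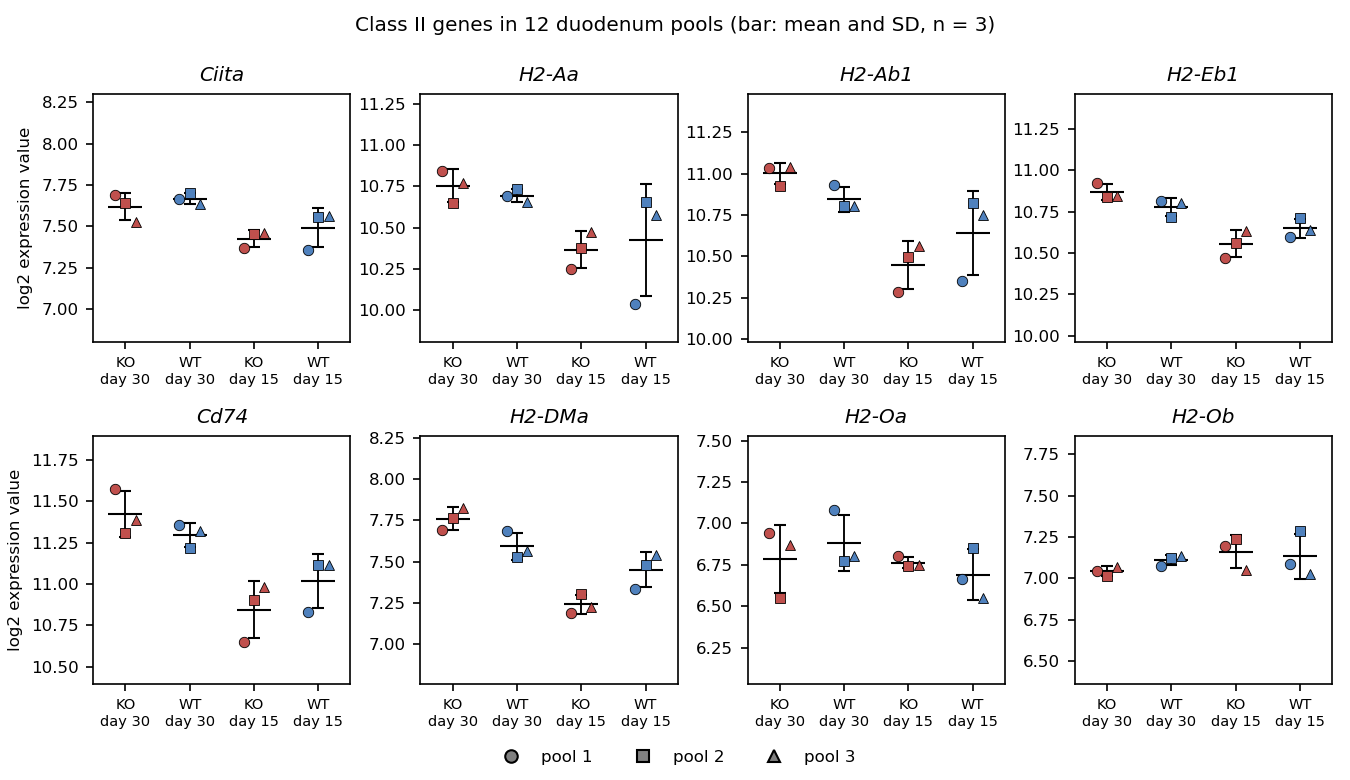
Log2 expression value (y axis) of 8 class II genes in each of 12 pools, by group (x axis), with the mean and SD of 3 pools as a bar; circles, squares and triangles are pools 1, 2 and 3, and every panel spans the same range on the log2 scale. In knockout, all day 30 pools lay above all day 15 pools for 6 genes, and H2-Oa and H2-Ob overlapped.

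Ciita, the coactivator gene, lies on chromosome 16. In knockout pools it was at 7.69, 7.64 and 7.53 at day 30, against 7.37, 7.45 and 7.46 at day 15. In wild type pools it was at 7.67, 7.70 and 7.64 at day 30, against 7.36, 7.55 and 7.56 at day 15. The day 30 pools lay above the day 15 pools in both genotypes, and in each the lowest pool was pool 1 of day 15. Its log2 difference was 0.19 in knockout (SE 0.07, limma adjusted p = 0.043) and 0.18 in wild type (SE 0.07, limma adjusted p = 0.066), so the estimates nearly match and the knockout one alone passed. That call was lost when any of 9 of the 12 arrays was left out (0.16 to 0.21), among them each of the 3 knockout day 15 pools, with the replicate number as a block (limma adjusted p = 0.056), with an intensity trend (limma adjusted p = 0.053) and with the 6 knockout arrays alone (limma adjusted p = 0.063).

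H2-Aa and H2-Ab1, on chromosome 17, encode the alpha and the beta chain of the I-A heterodimer. H2-Aa was at 10.84, 10.65 and 10.77 in knockout day 30 pools, against 10.25, 10.38 and 10.47 in knockout day 15 pools. The wild type pools had 10.69, 10.73 and 10.66 at day 30, against 10.04, 10.66 and 10.58 at day 15. In wild type the ages overlapped, since pool 2 of day 15 reached the level of the lowest day 30 pool, and pool 1 of day 15 stood well below the others. H2-Aa rose in knockout by 0.39 (SE 0.13, limma adjusted p = 0.037), and its wild type difference was 0.27 (SE 0.13, limma adjusted p = 0.14). The knockout call ended without day 30 pool 1 or 3 or without day 15 pool 1 or 2 of that genotype (0.33 to 0.39). Without wild type day 15 pool 2, H2-Aa passed in wild type at 0.39.

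H2-Ab1 was at 11.04, 10.92 and 11.04 in knockout day 30 pools, against 10.28, 10.49 and 10.56 in knockout day 15 pools. In the wild type it was at 10.93, 10.80 and 10.80 at day 30, against 10.35, 10.82 and 10.75 at day 15. The knockout ages were apart by more than the spread within either, and the wild type ages overlapped through pool 2 of day 15. The rise in knockout was 0.56 (SE 0.11, limma adjusted p = 0.0018), a fold of 1.47, and it was between 0.47 and 0.61 with each array left out in turn. The wild type difference was 0.21 (SE 0.11, limma adjusted p = 0.19).

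H2-Eb1, also on chromosome 17, encodes the beta chain of the I-E heterodimer. It was at 10.92, 10.84 and 10.84 in knockout day 30 pools, against 10.47, 10.56 and 10.63 in knockout day 15 pools. Wild type pools had 10.81, 10.72 and 10.80 at day 30, against 10.60, 10.71 and 10.64 at day 15. All day 30 pools lay above all day 15 pools in both genotypes, though by a narrow margin in wild type. The log2 difference was 0.31 in knockout (SE 0.06, limma adjusted p = 0.0012) and 0.13 in wild type (SE 0.06, limma adjusted p = 0.12). Its usual partner H2-Ea, the alpha chain of I-E, is not transcribed in mice of the H2 b haplotype, and the labels do not state the haplotype here. H2-Ea lay between 4.84 and 5.24 over the 12 pools and was called in no age or genotype comparison.

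Cd74 encodes the invariant chain, which fills the groove of new class II molecules and guides them to the endosome. It lies on chromosome 18, as Onecut2 does, unlike the other class II genes. It was at 11.58, 11.31 and 11.39 in knockout day 30 pools, against 10.65, 10.90 and 10.98 in knockout day 15 pools. Wild type pools had 11.35, 11.22 and 11.32 at day 30, against 10.83, 11.12 and 11.11 at day 15. Cd74 separated the ages in both genotypes, by a wider margin in knockout. The rise in knockout was 0.58 (SE 0.10, limma adjusted p = 8.2e-04), a fold of 1.49, and stayed between 0.48 and 0.65 with each array left out in turn. The wild type difference was 0.28 (SE 0.10, limma adjusted p = 0.060), just short of the call. It passed with an intensity trend in the variance (limma adjusted p = 0.034), with the 6 wild type arrays alone (limma adjusted p = 0.046), among the brighter genes alone (limma adjusted p = 0.036) and without knockout day 15 pool 1 (limma adjusted p = 0.038). With each array centred on its own median, Cd74 (0.31), Ciita (0.21) and H2-Eb1 (0.17) passed in wild type, so the count of 0 there depends on scaling.

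H2-DMa, on chromosome 17, encodes the alpha chain of DM, the peptide exchange factor. It was at 7.69, 7.76 and 7.83 in knockout day 30 pools, against 7.19, 7.31 and 7.23 in knockout day 15 pools. Wild type pools had 7.68, 7.53 and 7.56 at day 30, against 7.34, 7.48 and 7.54 at day 15. The knockout pools were the highest as a group at day 30 and the lowest as a group at day 15, and the wild type ages overlapped. H2-DMa had the smallest adjusted p of the 8 genes in the knockout, with a rise of 0.52 (SE 0.07, limma adjusted p = 7.4e-05), between 0.49 and 0.55 with each array left out. Its wild type difference was 0.14 (SE 0.07, limma adjusted p = 0.15). H2-DMa was not among the brighter genes, those at or above the median feature, so it was not tested in that setting.

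H2-Oa and H2-Ob, on chromosome 17, encode the DO heterodimer, which holds DM back and is best known from B cells. H2-Oa was at 6.94, 6.55 and 6.87 in knockout day 30 pools, against 6.80, 6.74 and 6.75 in knockout day 15 pools. In wild type it was at 7.08, 6.77 and 6.80 at day 30, against 6.67, 6.85 and 6.55 at day 15. The groups overlapped in both genotypes, with log2 differences of 0.02 in knockout (95% interval -0.22 to 0.26) and 0.20 in wild type (-0.05 to 0.44).

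H2-Ob was at 7.05, 7.01 and 7.07 in knockout day 30 pools, against 7.20, 7.24 and 7.05 in knockout day 15 pools. Wild type pools had 7.08, 7.12 and 7.13 at day 30, against 7.09, 7.29 and 7.03 at day 15. H2-Ob was the only member with a negative estimate in both genotypes, -0.12 in knockout (95% interval -0.27 to 0.04) and -0.02 in wild type (-0.18 to 0.13), neither called. The promoters of H2-Oa and H2-Ob printed above hold the X and Y box letters as those of H2-Aa and H2-Eb1 do. Detection calls were not used here, so whether these features lie above background is not known, and features near background understate a change.

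Knockout was then set against wild type at each age. At day 30 0 of 8 class II genes were called by limma, where 1.98% of all genes were, and 1 of 8 had an unadjusted p under 0.05, where 11.2% of all genes did. At day 15 0 of 8 were called, where 3.83% of all genes were, and 1 of 8 had an unadjusted p under 0.05, where 15.2% did. Averaged over both ages, 0 of 8 were called by limma (5.34% of all genes) and 0 of 8 had an unadjusted p under 0.05 (17%). The largest knockout minus wild type estimates were those of H2-DMa, 0.17 at day 30 (95% interval 0.02 to 0.32, limma adjusted p = 0.34) and -0.21 at day 15 (-0.36 to -0.06, limma adjusted p = 0.13). All 3 knockout pools lay above all 3 wild type pools at day 30 for H2-DMa and H2-Eb1 (2 of 8, where 7.95% of all genes did) and below them for H2-Ob (1 of 8, where 7.49% did). At day 15 all 3 lay below for H2-DMa (1 of 8, where 12.2% did). With array weights the day 15 value of H2-DMa passed, at -0.23 (limma adjusted p = 0.041). The intervals of all 8 genes lay within -0.34 and 0.40 at day 30 and within -0.43 and 0.32 at day 15.

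The age change was compared between the genotypes in the same fit. By limma 0 of 8 genes were called, where 0.456% of all genes were, and 3 of 8 had an unadjusted p under 0.05, where 8.85% of all genes did. Those were H2-DMa, with an age change larger in knockout by 0.38 (SE 0.10, unadjusted p = 0.0018 and adjusted p = 0.16 by limma), H2-Ab1 by 0.35 (SE 0.16, limma adjusted p = 0.54) and H2-Eb1 by 0.18 (SE 0.08, limma adjusted p = 0.55). For Cd74 the difference was 0.30 (95% interval -0.01 to 0.62), for H2-Aa 0.12 (-0.28 to 0.51) and for Ciita 0.02 (-0.19 to 0.22). The DO genes went the other way, with -0.17 for H2-Oa (-0.51 to 0.17) and -0.09 for H2-Ob (-0.31 to 0.12). The 6 calls in knockout and 0 in wild type therefore do not show that the genotypes differ in this change.

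**Figure D2:**
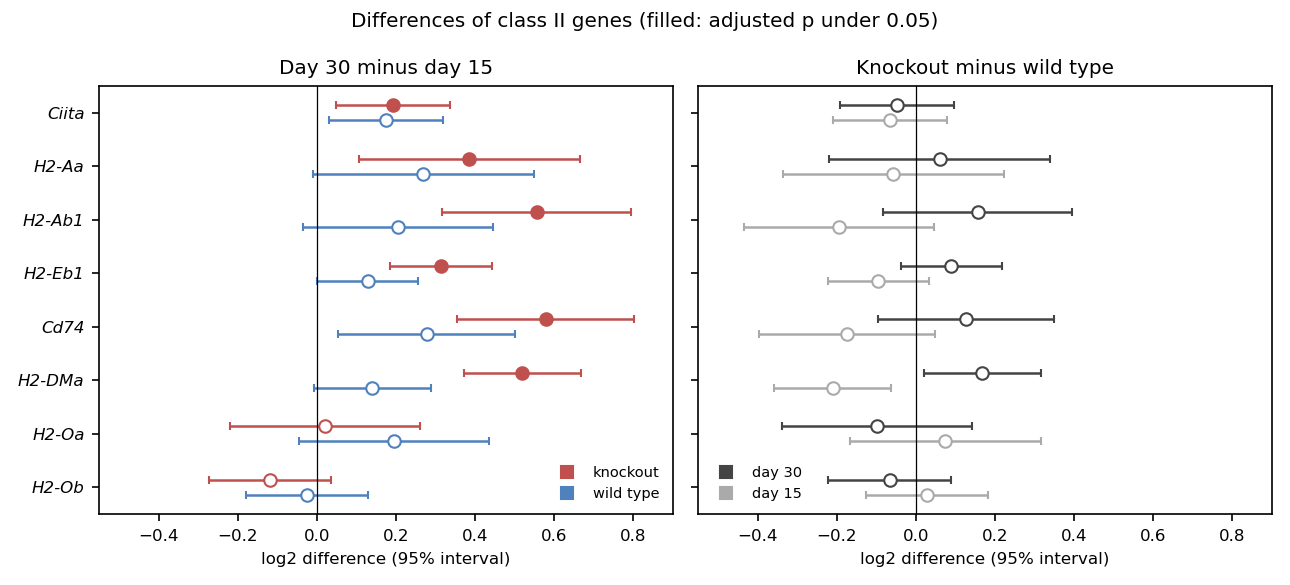
Log2 difference with its 95% interval (x axis) of 8 class II genes (y axis), day 30 minus day 15 in knockout and wild type on the left, and knockout minus wild type at day 30 and day 15 on the right; filled points have an adjusted p under 0.05. Filled points occur only on the left, in knockout, for 6 genes between 0.19 and 0.58, and none occurs on the right.

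The 6 genes called in knockout were then compared with each other over the pools. They were picked by their age call on these same arrays, so their correlations over the 12 arrays are in part given by that choice. Over the 12 arrays the 15 pairs among them had Pearson correlations of 0.74 to 0.98 (median 0.89), and of 0.27 to 0.93 (median 0.71) once the mean of each group was taken out. Against the mean of the other 7 measured members, H2-Ab1 (0.97) and Cd74 (0.95) followed most closely, and H2-Oa (0.37) and H2-Ob (-0.36) did not. With the group means taken out, H2-DMa was loosely tied to H2-Eb1 (0.27) and Ciita (0.30). These correlations are descriptions over 12 arrays that share their groups, with no test.

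At day 15, pool 1 held the lowest value of its group for 6 of these 6 genes in knockout and again for 6 of 6 in wild type. For H2-Oa and H2-Ob pool 1 was the lowest in neither group. The 6 genes are correlated with each other, and the share of all genes with this order was not computed. The mean of the 8 genes, each centred on its own average, was -0.24, -0.13 and -0.12 in knockout pools 1, 2 and 3 and -0.23, 0.05 and -0.04 in the wild type pools of that age. At day 30 it was 0.20, 0.07 and 0.15 in knockout and 0.15, 0.06 and 0.08 in wild type. Of the 18 other lists, 6 also had their lowest mean in pool 1 of both day 15 groups (class II regulators, interferon gamma axis, peptide processing, class I presentation, macrophage and general leukocyte genes), 3 had their highest mean there (stomach and Brunner gland, epithelial and Peyer's patch genes) and 9 did neither. The mean of 12 stomach and Brunner gland markers was 9.78 in knockout day 15 pool 1, against 9.24 and 9.2 in pools 2 and 3, and 9.86 in wild type day 15 pool 1, against 9.72 and 9.64. The epithelial list differed less, with 11.86 in that knockout pool, against 11.84 and 11.83, and 11.8 in that wild type pool, against 11.79 and 11.76. The mean of 17 genes of the interferon gamma axis was 8.42 in knockout day 15 pool 1, against 9.41 and 9.28 in pools 2 and 3, and 8.48 in wild type day 15 pool 1, against 8.88 and 9.0. The mean of 23 class I presentation genes was 9.61 in that knockout pool, against 9.92 and 9.93, and 9.64 in that wild type pool, against 9.81 and 9.79. With the group means taken out, the class II mean correlated with the class I list at 0.72, with a list of general leukocyte genes at 0.68, with the interferon gamma axis at 0.60, with the epithelial list at -0.40 and with the stomach and Brunner gland list at -0.52 over the 12 arrays. The part of these lists in the class II values was not tested. With both of these pools left out, an alternative added after their values were seen, 5 of 8 genes were called in knockout and 0 in wild type, where Cd74 was then at 0.18, H2-Aa at 0.08 and H2-Ab1 at 0.06. The knockout call that ended was that of Ciita (0.17, limma adjusted p = 0.076).

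**Figure D3:**
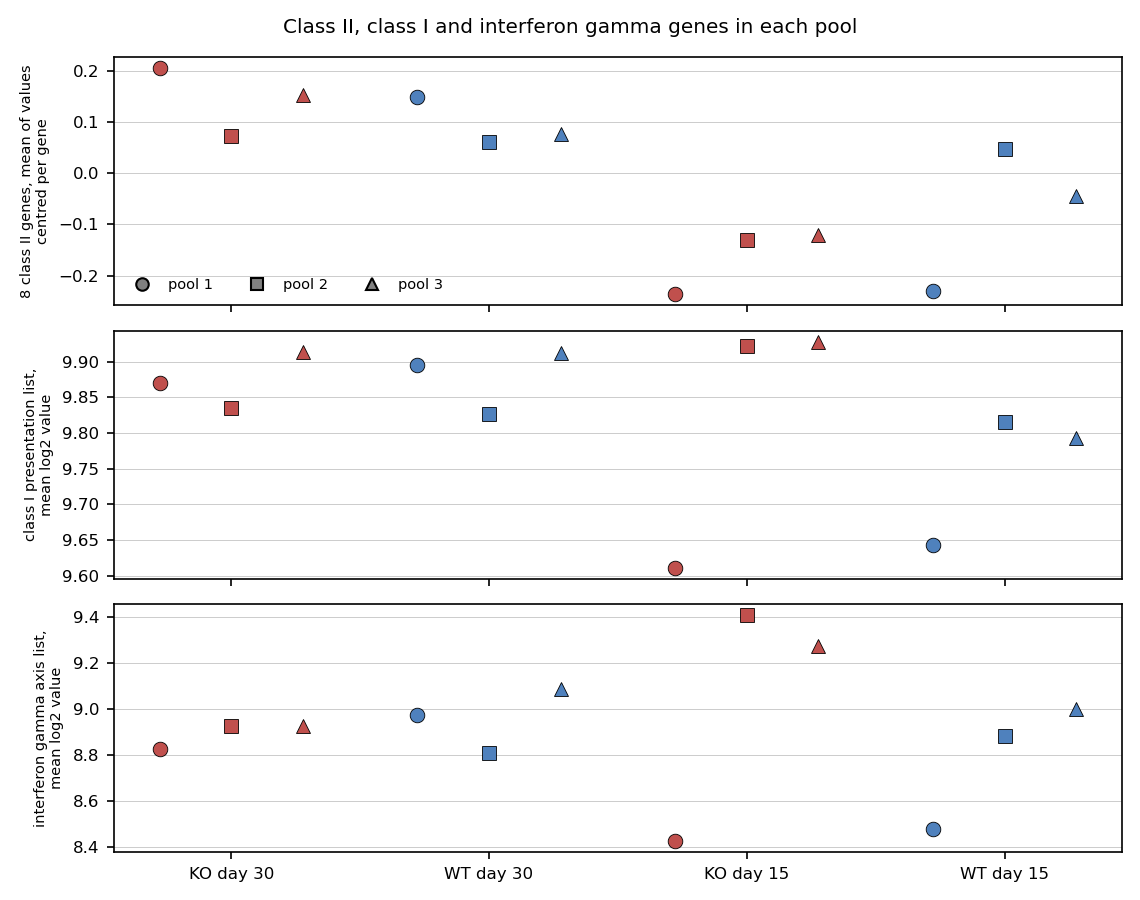
Mean of 8 class II genes, each centred on its average (top), and mean log2 value of the class I presentation list (middle) and of the interferon gamma axis list (bottom) in each of 12 pools (x axis, by group; circles, squares and triangles are pools 1, 2 and 3). Pool 1 of both day 15 groups is the lowest of its group in all 3 panels.

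The counts of this list and of the lists below stand beside the shares of all genes called with age. Those were 13.8% higher and 17.2% lower in knockout, and 12.3% and 17% in wild type. The transcription factors upstream of class II genes had no common direction. Of 13 measured, 4 rose and 1 fell with age in knockout, and 3 rose and 3 fell in wild type (list medians 0.05 and 0.01). Of the RFX complex, which binds the X box, Rfx5 fell by 0.37 in knockout (limma adjusted p = 0.033) and fell by 0.34 in wild type (limma adjusted p = 0.048), while Rfxap (-0.13 and -0.14) and Rfxank (0.05 and 0.18) were not called. Nfyb, a subunit of the factor that binds the Y box, rose by 0.36 in knockout and by 0.33 in wild type, and Irf2 by 0.22 and 0.28. The largest change in the list was that of Irf4, a regulator of lymphocytes and plasma cells, with rises of 1.42 in knockout and 1.64 in wild type. Irf1, an interferon-induced factor that drives Ciita, had differences of 0.06 in knockout and 0.16 in wild type and was not called.

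Genes of the interferon gamma axis were also mixed. Of 17, 3 rose and 2 fell in knockout, and 2 rose and 0 fell in wild type (medians -0.09 and 0.09). Ifng itself was at 6.22, 6.41 and 6.44 in knockout day 30 pools, against 6.19, 6.08 and 5.93 in knockout day 15 pools, a difference of 0.29 (limma adjusted p = 0.053). In wild type it was at 6.39, 6.12 and 6.07 at day 30, against 6.08, 5.80 and 6.07 at day 15, a difference of 0.21 (limma adjusted p = 0.16). Neither passed. Ido1, an interferon-induced enzyme of tryptophan breakdown, rose by 2.19 in knockout and by 2.13 in wild type. The chemokine gene Cxcl9 spread from 7.12 to 8.84 within the knockout day 15 pools alone and was not called. Ifngr1, a chain of the interferon gamma receptor, was higher in knockout than in wild type at day 15 by 0.26 (limma adjusted p = 0.027).

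Several endosomal proteases that prepare the invariant chain and peptides fell with age. Of 13 genes of class II peptide processing, 7 fell and 0 rose in knockout and 6 fell and 1 rose in wild type (medians -0.24 and -0.16). Ctsl, encoding cathepsin L, was at 9.75, 9.68 and 9.85 in knockout day 30 pools, against 11.81, 12.07 and 12.08 in knockout day 15 pools, and at 9.78, 9.95 and 10.06 in wild type day 30 pools, against 11.31, 11.49 and 11.60 at day 15. It fell by 2.23 in knockout and fell by 1.54 in wild type. Lgmn, encoding the asparagine endopeptidase legumain, fell by 1.23 in knockout and fell by 0.52 in wild type. Ctss, encoding cathepsin S, the main protease for the last step on the invariant chain in dendritic cells and B cells, fell by 0.57 in knockout (limma adjusted p = 1.7e-04) and was at -0.16 in wild type (limma adjusted p = 0.18). Between the genotypes, 3 of the 13 genes were higher and 1 lower in knockout at day 15, and 0 were higher and 1 lower at day 30. Over all genes, 3.83% were called either way between the genotypes at day 15 and 1.98% at day 30. The 3 higher at day 15 were Lgmn by 0.76, Ctsl by 0.52 and Ctss by 0.34 (limma adjusted p = 8.7e-04, 0.010 and 0.043). The lower one was Ctse at both ages, encoding cathepsin E and named here after its values were seen, at -0.70 at day 30 and -0.52 at day 15 (limma adjusted p = 0.011 and 0.040). The thiol reductase gene Ifi30 did not pass in any of these comparisons, with differences between -0.02 and 0.05. These enzymes also serve general lysosomal digestion.

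Some genes of the class I route were called with age. Over all genes, 13.8% were called higher and 17.2% lower in knockout, and 12.3% and 17% in wild type. Of 23 class I genes, 4 rose and 1 fell with age in knockout, and 6 rose and 0 fell in wild type (medians 0.12 and 0.18). Among the risers were Psme2, of the proteasome activator (0.45 in knockout and 0.39 in wild type), the immunoproteasome subunit genes Psmb9 (0.42 and 0.41) and Psmb10 (0.39 and 0.37), and the peptide transporter gene Tap2 (0.30 and 0.35). B2m, the light chain of class I, was at -0.15 and -0.07, and Nlrc5, the class I relative of Ciita, at -0.08 and 0.02, neither called. H2-K1 and H2-D1 had no feature of their own.

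**Figure D4:**
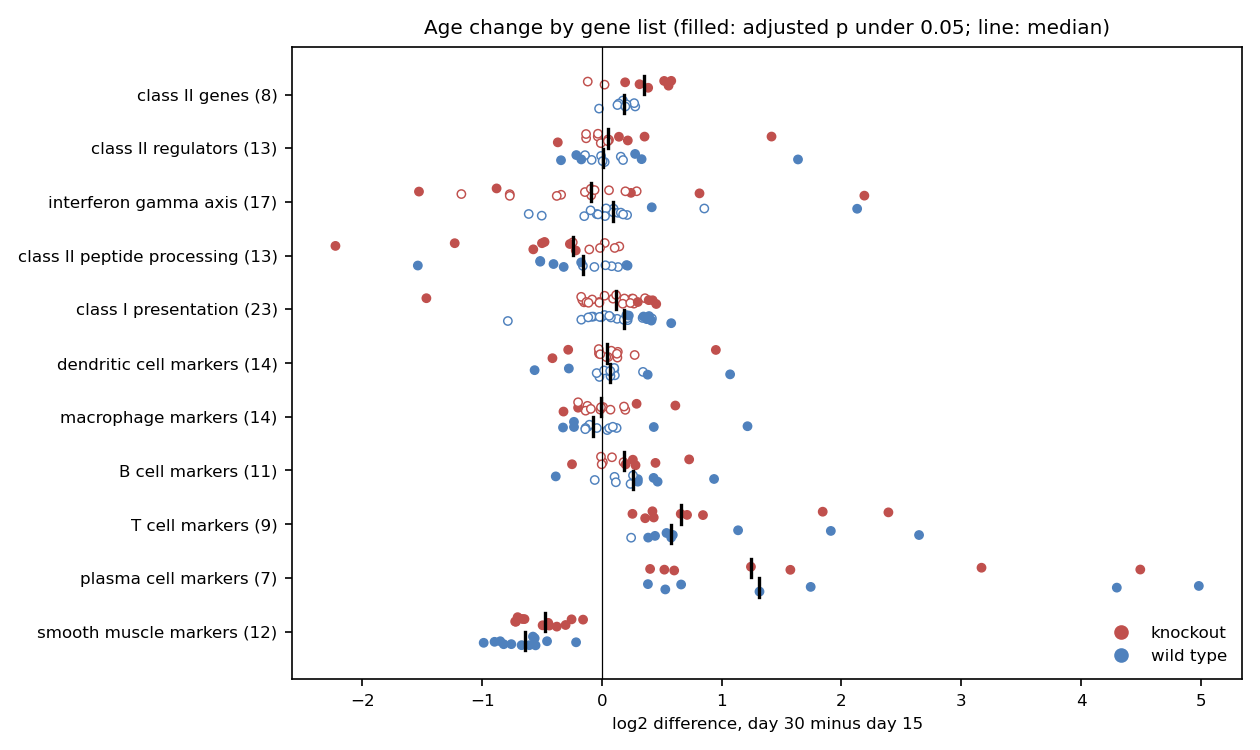
Log2 difference, day 30 minus day 15 (x axis), of each gene of the class II set and of 10 other lists (y axis, number of genes in brackets) in knockout and wild type; filled points have an adjusted p under 0.05 and black lines are medians. The class II medians are 0.35 in knockout and 0.19 in wild type. Those of T cell and plasma cell markers lie further right in both genotypes, and that of B cell markers in wild type alone (0.26). Those of peptide processing and smooth muscle genes lie left of 0.

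Markers of the cells that carry class II molecules changed in both directions. So did genes at large, with 13.8% called higher and 17.2% lower in knockout, and 12.3% and 17% in wild type. Of 14 dendritic cell markers, 1 rose and 2 fell with age in knockout and 2 rose and 2 fell in wild type (medians 0.04 and 0.07), and the mean log2 value of the list per pool was 7.34 in all knockout pools of day 30 and 7.25 to 7.28 at day 15, with 7.30 to 7.42 in wild type at day 30 and 7.23 to 7.30 at day 15. Itgax, which encodes CD11c, had differences of 0.12 in knockout and 0.07 in wild type, and Flt3, the dendritic cell growth factor receptor, of 0.05 and 0.07, none called. The riser in both genotypes was Itgae (0.95 and 1.07), which intraepithelial T cells carry too. Fscn1 fell in both genotypes, with differences of -0.41 in knockout and -0.56 in wild type, the lowest of the list. Cst3 fell in wild type, from 11.07, 11.21 and 11.20 at day 15 to 10.94, 10.89 and 10.83 at day 30. Xcr1, a marker of cross-presenting dendritic cells, rose in wild type by 0.38 and was at -0.03 in knockout, a difference between the genotypes that was not called (limma adjusted p = 0.19). Of 14 macrophage markers, 2 rose and 2 fell in knockout and 2 rose and 3 fell in wild type (medians -0.01 and -0.07), and the list mean ran from 8.28 to 8.38 in knockout and from 8.32 to 8.39 in wild type at day 30, against 8.22 to 8.39 and 8.28 to 8.4 at day 15. Csf1r, the macrophage growth factor receptor, fell by 0.20 in knockout and was at -0.14 in wild type. Cx3cr1, of resident macrophages, fell by 0.32 in knockout and fell by 0.33 in wild type. Lyz2 rose by 0.61 and 1.22, but its sequence is close to that of the Paneth cell gene Lyz1, so the feature may hold both. Cd14 was the other marker that rose in wild type, to 7.10, 7.17 and 7.42 at day 30. Its wild type pools of day 15 had 6.73, 6.84 and 6.82. In knockout pools Cd14 was at 7.05, 7.05 and 6.84 at day 30, against 6.76, 6.68 and 6.65 at day 15.

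Of 11 B cell markers, 5 rose and 1 fell with age in knockout and 5 rose and 1 fell in wild type (medians 0.18 and 0.26). Cd79a, part of the B cell receptor, rose by 0.73 and 0.94 and Cd79b by 0.45 and 0.46, while Ms4a1, encoding CD20, was called in knockout (0.28) and not in wild type (0.12). The marker that fell was Bank1, with differences of -0.25 in knockout and -0.39 in wild type. The mean of the B cell list lay between 6.17 and 6.33 in knockout and between 6.27 and 6.34 in wild type at day 30, against 5.97 to 6.14 and 5.98 to 6.14 at day 15. T cell markers rose in 9 of 9 cases in knockout and in 8 of 9 in wild type (medians 0.66 and 0.58), and plasma cell markers, of cells that carry little class II, rose in 7 of 7 cases in both (1.24 and 1.32). The T cell list mean was 7.40 to 7.50 in knockout and 7.38 to 7.46 in wild type at day 30, against 6.55 to 6.59 and 6.45 to 6.49 at day 15. Of 10 genes of leukocytes at large, 4 rose in each genotype and 0 fell (medians 0.17 and 0.16), with list means of 8.64 to 8.77 in knockout and 8.76 to 8.80 in wild type at day 30, against 8.32 to 8.52 and 8.45 to 8.6 at day 15. Epithelial markers rose in 4 of 11 cases and fell in 2 in knockout, and rose in 6 and fell in 2 in wild type (0.10 and 0.15). All 12 smooth muscle genes fell in both genotypes (-0.47 and -0.64), to list means of 9.75 to 9.78 in knockout and 9.75 to 9.88 in wild type at day 30, against 10.17 to 10.34 and 10.44 to 10.54 at day 15. How far any of these cells or tissues enters the class II values was not tested.

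The 10 genes outside the set whose values most resembled the class II mean over the 12 arrays were Vav1, a signalling gene of blood cells (0.95), Ccr9, the gut homing receptor of lymphocytes (0.94), Nudt8 (0.93), Mrps28 (0.92), D5Ertd579e (0.92), Coro1a, an actin regulator of leukocytes (0.91), Slc35e3 (0.91), Steap4 (0.90), Bpifb3 (0.90) and Phf23 (0.90). With the group means taken out, the closest 10 were Cx3cl1, the ligand of CX3CR1 (0.97), Ccr9 (0.96), Rpp21 (0.91), Hnf4a, a transcription factor of enterocytes (0.90), Unc80 (0.89), Ptk6 (0.89), Ssxb3 (0.89), Esm1 (0.88), the class I gene H2-Q4 (0.88) and Mxi1 (0.88). Leaving out each array in turn kept Vav1 between 0.94 and 0.97 and Cx3cl1 between 0.96 and 0.98. These are Pearson correlations over 12 arrays, chosen as the highest of the 19938 genes after some were left out. Left out were the members, predicted loci, small RNA genes, olfactory and vomeronasal receptor genes and antigen receptor segments. High values therefore occur among the named genes by selection.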

How the data were processed

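Total RNA of 12 duodenal pools was measured on an Affymetrix array. Per the submitters' processing notes, Affymetrix Expression Console 1.1 and RMA produced the deposited log2 values. No source states the base of the logarithm, and base 2, which RMA gives, was assumed. RMA evens the distributions of the arrays, which hides any change common to most genes. Of 35557 features, 21789 had 1 symbol, 1621 had several and 12147 had none. Where a gene had several features, the one with the highest mean was used, giving 19938 genes.

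Limma 3.58.1 in R 4.3.3 was fitted with 4 group means to all 12 arrays (8 residual degrees of freedom, eBayes defaults, Benjamini-Hochberg over all genes within a comparison, two-sided, called at 0.05). The code was tested on simulated arrays. With 3 pools a group the precision is limited, and p-values measure the spread between pools. No fit took account of sex.

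The class II members and the 18 other lists were chosen with earlier results of these data known, and were not tested as sets. Genes that could be named were the members, a written list of pathway and marker genes, the 4 genes of each list with the smallest wild type age p, and the 10 genes most like the class II mean, over all arrays and with group means taken out. The ranking by likeness left out the members, predicted loci and the gene families named above. Alternatives were an intensity trend in the variance, array weights, a replicate block, median centring, a filter on dim genes, the compared groups alone and leaving out each array. An X box core and the fit without both first day 15 pools were added after the data were seen.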

Additional observations from a re-analysis of the deposited data

Results flagged for a closer look

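H2-DMa was picked out because all 3 knockout pools lay above all 3 wild type pools at day 30 (7.69 to 7.83, against 7.53 to 7.68) and all 3 lay below them at day 15 (7.19 to 7.31, against 7.34 to 7.54). The difference between those genotype effects was 0.38 on the log2 scale. It was tested and was not called after adjustment over all genes (limma adjusted p = 0.16, unadjusted p = 0.0018). The other 7 measured members did not show opposite, non-overlapping groups at the 2 ages. With each array left out in turn the difference lay between 0.33 and 0.44 (limma adjusted p between 0.10 and 0.33).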

How the results depend on the processing

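Of 124 alternative values of the 6 called class II changes, 107 kept the call, 17 lost it (all of H2-Aa or Ciita) and 0 reversed; of 844 alternative values of member differences not called, 9 became called. The wild type age count of 0 was 1 with an intensity trend, 1 among genes at or above the median feature (where 4 of 8 members remained), 1 with the compared groups alone and 3 with median centring, and lay between 0 and 1 with each array left out. The knockout age count of 6 lay between 4 and 6 with each array left out, and was 5 with an intensity trend, with the compared groups alone and without both first day 15 pools (Ciita lost in each), and 4 among brighter genes, where 4 members remained. The members not among the brighter genes were Ciita, H2-DMa, H2-Oa and H2-Ob. The knockout minus wild type count at day 15 was 1 with array weights. The promoter count of 3 was 3 with 25 to 50 bases between the boxes and 5 with the X box core chosen later. Counts over all genes moved more. The genotype difference in age change was called for 91 genes, and for 177 with an intensity trend, 155 with array weights, 158 among brighter genes and 47 to 60 without wild type day 30 pool 3, knockout day 15 pool 2 or 3, or wild type day 15 pool 2 or 3. Knockout against wild type at day 15 gave 764 genes, 1218 with array weights, 480 with the compared groups alone, 340 to 505 without knockout pool 2 or 3 or any wild type pool of that age, and 502 without both first pools. At day 30 it gave 395 genes, 596 with an intensity trend, 237 with the compared groups alone and 218 to 260 without knockout pool 1 or wild type pool 2 or 3. Averaged over both ages it gave 1064 genes and 668 without knockout day 15 pool 2. The causes were not tested. Detection calls were not used here, so signal over background is unknown.

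The labels do not say that replicate numbers pair the pools, and the main fit used no pairing. Deviations from group means correlated at -0.25 to 0.36 between arrays of one number and at -0.36 to 0.37 between others. Of 12 arrays, 5 correlated best with their own number. At day 15 the correlation between the genotypes was 0.36 for pools 1, -0.01 for pools 2 and 0.26 for pools 3, against -0.36 to 0.19 between other numbers. Whether pools of one number share a batch was not tested. With the replicate block, 5 members were called in knockout and 0 in the other comparisons.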

Other observations

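Some partners of class II recognition on T cells rose with age. Of 11 genes of costimulation and class II receptors, 3 rose and 1 fell in knockout and 5 rose and 1 fell in wild type. The shares of all genes were 13.8% higher and 17.2% lower in knockout, and 12.3% and 17% in wild type. Cd28, the main costimulatory receptor, rose by 1.04 in knockout and by 1.02 in wild type, Ctla4, its inhibitory relative, by 0.72 and 0.70, and Icos by 0.37 and 0.34. Cd4, the class II coreceptor, was at 0.17 and 0.21 and was not called. Cd80 (0.02 and -0.08) and Cd86 (-0.20 and -0.08), the ligands of CD28 on presenting cells, were not called either. The ligand gene Pdcd1lg2 rose in wild type, to 5.83, 6.01 and 5.98 at day 30 from 5.61, 5.56 and 5.59 at day 15. In knockout it was at 5.90, 5.75 and 5.74, against 5.68, 5.64 and 5.47. The ligand gene Icosl, named after its values were seen, had the lowest differences of the list, -0.37 in knockout and -0.19 in wild type.

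H2-Eb2, a beta chain relative next to H2-Eb1, rose in knockout by 0.44 (SE 0.12, limma adjusted p = 0.011) and was at 0.28 in wild type (SE 0.12, limma adjusted p = 0.084). Among 10 genes of lymphoid follicles and Peyer's patches, 2 rose in knockout and 4 in wild type, where 13.8% and 12.3% of all genes did. Ccl20, the chemokine of the epithelium over follicles, rose by 1.27 and 1.44. Cxcl13, which draws B cells into follicles, was higher in knockout than in wild type at day 15 by 0.61 (SE 0.09, limma adjusted p = 0.0014) and rose with age in wild type by 0.34, while it was at -0.23 in knockout, and the difference between the genotypes in that change was not called (limma adjusted p = 0.065).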
